A study of Mus musculus with 40 samples.

Results

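The AP-1 transcription factor family is described here by 8 genes, Fos, Fosb, Fosl1, Fosl2, Jun, Junb, Jund and Batf3, in 40 Affymetrix arrays of CD4 T cells from C57Bl/6 mice. Members were taken as the probe sets that the platform annotation assigns to one of these genes alone, with the probe set of the highest mean over the arrays kept for each gene. All 8 genes were found on both array types, among 18194 genes measured in an experiment on sorted T cells and 17097 in an experiment with a semaphorin ligand.

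The sorted experiment used Foxp3GFP reporter mice and held 3 arrays of regulatory T cells (Treg) that were activated, 3 of Treg kept at rest and 2 of conventional T cells (Tconv) kept at rest. The source label of these arrays names bone marrow. Treg were gated as CD4+ CD45RBlow GFP+ and Tconv as CD45RBhi GFP-, and all cells spent 48 h in culture, the activated ones with antibodies to CD3 and CD28. The ligand experiment used CD4+ CD45RBlo YFP+ Treg from spleen and lymph nodes, all stimulated with anti-CD3 at 1 µg/mL, anti-CD28 at 2 µg/mL and IL-2 at 100 U/mL. They were plated on semaphorin-4a fusion protein (Sema4a-Ig) or on control mouse IgG1, each at 10 µg/mL. NRP KO Treg carried Nrp fl/fl with Foxp3-YFP-iCre, which deletes the neuropilin receptor in cells that express Foxp3, and WT Treg carried the Foxp3-YFPiCre allele alone. Each of the 4 combinations had 8 arrays, and both genotypes therefore carry the Cre allele. One Sema4a-Ig array with a WT title, replicate 2, has a knockout genotype label; its title set its group. No label ties a replicate to an animal or culture of its own, so each p-value covers only the spread among these arrays, part of which may be technical. The number of arrays limits the precision of every value below.

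AP-1 is a dimer of basic leucine zipper (bZIP) proteins, formed between Jun proteins or between a Jun and a Fos or Batf protein. The dimers bind short palindromic DNA sites, and in T cells they act with NFAT at cytokine genes after stimulation of the antigen receptor. Fos and Jun are classic immediate-early genes whose transcripts appear and decay quickly after a stimulus, while Jund is made more steadily. Batf proteins lack the transactivation domain of Fos and Jun and bind composite sites together with Irf4 or Irf8.

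RefSeq promoter sequences (build GRCm38.p6, 250 bases before to 50 after the start of the gene) were present for 7 of the 8 members. Those of Fosl2, Fos and Jun are shown because Fosl2 and Fos were the members that differed between the sorted groups and Jun is the founding member of the family. The letter patterns below were searched on both strands: TGANTCA, the form of the AP-1 site; TGANNTCA, the form with one more base; and TGACG, the core of the cyclic AMP response site, which can lie inside the second pattern. Matches are in capitals.
Fosl2 (chr5:32136222-32136521, plus strand): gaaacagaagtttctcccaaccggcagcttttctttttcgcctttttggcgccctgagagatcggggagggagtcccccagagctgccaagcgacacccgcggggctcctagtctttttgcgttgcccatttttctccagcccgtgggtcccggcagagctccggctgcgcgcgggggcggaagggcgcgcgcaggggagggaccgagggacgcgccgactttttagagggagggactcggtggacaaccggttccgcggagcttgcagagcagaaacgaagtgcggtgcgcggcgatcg
Fos (chr12:85473640-85473939, plus strand): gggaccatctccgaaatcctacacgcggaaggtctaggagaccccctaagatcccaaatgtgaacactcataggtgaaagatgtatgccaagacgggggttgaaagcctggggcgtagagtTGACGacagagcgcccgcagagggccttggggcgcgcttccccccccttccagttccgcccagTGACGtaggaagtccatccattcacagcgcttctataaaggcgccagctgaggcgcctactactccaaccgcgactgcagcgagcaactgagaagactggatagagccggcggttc
Jun (chr4:95052173-95052472, minus strand): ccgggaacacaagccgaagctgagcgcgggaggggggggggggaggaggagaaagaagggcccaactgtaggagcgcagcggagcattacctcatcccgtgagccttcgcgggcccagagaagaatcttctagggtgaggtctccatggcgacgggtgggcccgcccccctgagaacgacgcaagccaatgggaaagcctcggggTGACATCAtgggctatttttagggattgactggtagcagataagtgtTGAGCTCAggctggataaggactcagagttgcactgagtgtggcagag

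The Fos window held TGACG at positions -129 and -66 from the start. The Jun window held TGACATCA at -45 and TGAGCTCA at 3. Fosb and Junb each held 1 TGACG, at -60 and -106, Jund held TGAAATCA at -61, and the windows of Fosl2 and Batf3 held none of these letters. Over all 32851 promoters of the table, TGANTCA was present in 7.81%, TGANNTCA in 14.1% and TGACG in 20.8%. A match is a run of letters and was not tested as a binding site.

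Values are log2 signals, and since probes differ in brightness the signal of one gene is not set against that of another. The signal of genes made only in other tissues (such as insulin, albumin and keratin genes) gave the level of probes with no transcript. In the sorted arrays 10 such genes had a median of 4.56 and reached 5.93, and in the ligand arrays 9 had a median of 3.27 and reached 4.38. Fosb, at a mean of 4.38 in the sorted arrays and 3.14 in the ligand arrays, lay inside this range in both, as did Fosl1 in the sorted arrays (mean 4.33) and Batf3 in both (mean 5.47 in the sorted arrays and 4.30 in the ligand arrays). In the ligand arrays the other 6 members lay above it by their means over all arrays, though Fosl1 was inside it in 3 of the 8 WT arrays on Sema4a-Ig. Where every array of the dimmer group lay inside the range, that group was not above the silent genes. The difference is then given with a bound, the fold of the brighter group over the highest silent gene, written as at least N-fold.

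The sorted cells carried the markers of their gates. All 8 of 8 Treg markers, among them Foxp3 and Nrp1, were higher in both Treg groups than in Tconv. Against Tconv, 2 of 9 measured markers of B cells passed as higher in activated Treg and 3 in resting Treg. Of 16 myeloid markers 1 was higher and 1 lower in activated Treg, and 0 were higher and 1 lower in resting Treg. Of 9 CD8 and NK cell markers only Klrd1 passed, at a mean of 5.34 in activated Treg, 7.30 in resting Treg and 12.03 in Tconv. Of 9 T cell markers 2 were lower in activated Treg and 0 passed in resting Treg. Their part in the comparisons with Tconv was not tested. The sorted arrays also differed in the difference between the 3' and 5' control probe sets of Actb, a measure that moves with RNA integrity and with labelling. It was 5.87, 6.17 and 2.31 in activated Treg, 5.90, 2.50 and 2.67 in resting Treg, and 1.24 and 1.54 in Tconv. No Tconv array lay above 4, so results that rest on the 3 high arrays are also given within the 5 arrays under 4.

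Among the Fos proteins, Fosl2 separated both Treg groups from Tconv. Fosl2 (Fra-2) pairs with Jun proteins and lacks the strong transactivation domain of Fos. Its signal was 9.30, 8.86 and 8.73 in activated Treg, 8.71, 8.28 and 8.96 in resting Treg, and 5.20 and 5.45 in Tconv. Every Treg array lay above both Tconv arrays, and the 2 Treg groups overlapped. Both Tconv arrays were inside the silent range. The fitted difference of Fosl2 was 3.32 ± 0.25 (SE) log2 units between resting Treg and Tconv, at least 6.59-fold, with a limma adjusted p of 0.0002662 and a 95% interval of 2.75 to 3.90. Between activated Treg and Tconv it was 3.64 ± 0.25, at least 8.18-fold (limma adjusted p = 0.0001065). Both calls hold within the 5 arrays of low Actb difference (3.30, adjusted p = 0.0147, and 3.40, adjusted p = 0.01952, by limma). The exact permutation p was 0.1 for each comparison with Tconv, the smallest that 3 against 2 arrays allow.

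A second Fosl2 probe set did not separate the groups. It read 5.32, 5.47 and 5.58 in activated Treg, 5.29, 5.27 and 5.33 in resting Treg, and 5.13 and 5.30 in Tconv, all within the range of the silent tissue genes. With the mean of both probe sets the Fosl2 difference was 1.94 for activated Treg and 1.70 for resting Treg against Tconv, and it passed in both (limma adjusted p = 0.0002504 and 0.0007451).

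**Figure D1:**
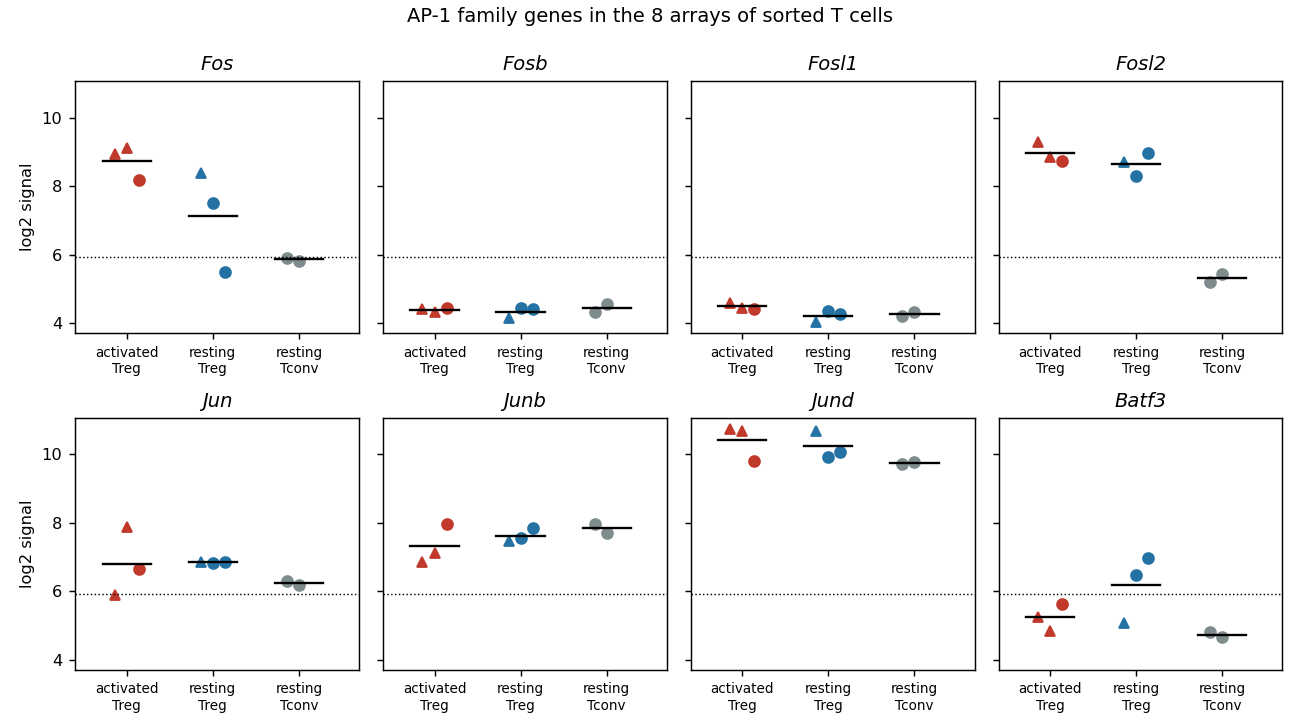
Log2 signal of the 8 AP-1 genes in each sorted T cell array; bars are group means, triangles are arrays with an Actb 3' minus 5' difference above 4 and circles those under 4, and the dotted line is the highest silent tissue gene (5.93). Fosl2 lies above 8 in all 6 Treg arrays and under 6 in both Tconv arrays.

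Fos, the partner of Jun in the classic AP-1 dimer, varied most among the resting Treg. Its signal was 8.94, 9.10 and 8.17 in activated Treg, 8.39, 7.51 and 5.50 in resting Treg, and 5.90 and 5.82 in Tconv. All activated arrays lay above Tconv, while the resting Treg ran across both groups, with replicate 3 below Tconv. Both Tconv arrays and resting replicate 3 were inside the silent range, so the order among them is not fixed. The fitted difference of Fos between activated Treg and Tconv was 2.88 ± 0.72 (SE) log2 units, with a bound of at least 2.81 log2 units (limma adjusted p = 0.04126). The 3 arrays of high Actb difference, activated replicates 1 and 2 and resting replicate 1, held the 3 highest Fos signals. The call was lost within the 5 arrays of low Actb difference (2.31, limma adjusted p = 0.2239) and with the Actb class as a block (1.97, limma adjusted p = 0.1109). It was also lost when any of activated replicates 1 and 2, resting replicate 2 or either Tconv array was left out, with limma adjusted p between 0.0597 and 0.2365.

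Fos differed by 1.60 ± 0.64 between activated and resting Treg and did not pass (limma adjusted p = 0.3764). Within the arrays of high Actb difference the gap was 0.63, and within those of low difference 1.67. Fos was 1.27 ± 0.72 higher in resting Treg than in Tconv, which did not pass (limma adjusted p = 0.4238). Without resting replicate 3 that difference was 2.09 and passed (limma adjusted p = 0.0187). Resting replicate 3 had the highest mean of the 9 dendritic and MHC class II markers, at 6.93 against 5.24 to 6.54 in the other arrays, and activated replicate 1 had the highest mean of the 16 myeloid markers, at 7.35 against 5.34 to 6.22. Their part in the Fos and Batf3 values was not tested.

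Fosb and Fosl1 gave signals between 4.05 and 4.59 in all 8 sorted arrays, within the range of the silent tissue genes. Fosl1 (Fra-1) read 4.59, 4.45 and 4.42 in activated Treg, 4.05, 4.35 and 4.27 in resting Treg, and 4.20 and 4.32 in Tconv. The activated arrays lay above the others by 0.08 at the closest point, which did not pass the test across genes (limma adjusted p = 0.5628 against resting Treg). A second Fosl1 probe set read 4.005, 3.711 and 3.999 in activated Treg, 4.144, 3.822 and 4.155 in resting Treg, and 4.006 and 4.011 in Tconv. There the activated arrays were not above the others and overlapped resting Treg.

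None of the Jun genes passed in any comparison of the sorted groups. Jun read 5.90, 7.87 and 6.66 in activated Treg, 6.86, 6.82 and 6.84 in resting Treg, and 6.29 and 6.19 in Tconv. The activated arrays spread over nearly 2 log2 units, on both sides of the other groups, and the 3 resting Treg arrays were close together and above Tconv. A second Jun probe set read 6.64, 6.69 and 6.21 in activated Treg, 6.27, 5.83 and 6.72 in resting Treg, and 6.42 and 5.74 in Tconv, and all 3 groups overlapped. Junb read 6.86, 7.11 and 7.96 in activated Treg, 7.46, 7.55 and 7.84 in resting Treg, and 7.97 and 7.71 in Tconv. Jund read 10.7, 10.7 and 9.81 in activated Treg, 10.7, 9.93 and 10.1 in resting Treg, and 9.73 and 9.79 in Tconv. The 3 arrays of high Actb difference held the 3 highest Jund and the 3 lowest Junb signals. The 95% interval of the activated minus resting Treg difference ran from -0.99 to 0.93 for Jun, from -0.95 to 0.34 for Junb and from -0.49 to 0.84 for Jund.

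Batf3, a small bZIP protein known for its need in one lineage of dendritic cells, was highest in 2 of the 3 resting Treg arrays. It read 5.26, 4.84 and 5.63 in activated Treg, 5.07, 6.48 and 6.98 in resting Treg, and 4.82 and 4.66 in Tconv. Only resting replicates 2 and 3 lay above the highest silent tissue gene (5.93), and they averaged 6.73. Both Tconv arrays were inside the silent range, so the sizes of the differences from Tconv below are not fixed. The difference between resting Treg and Tconv was 1.44 ± 0.50 (limma adjusted p = 0.1689). It passed within the 5 arrays of low Actb difference (2.00, limma adjusted p = 0.02419) and with the Actb class as a block (1.81, adjusted p = 0.01374). Of the 9 dendritic and MHC class II markers, 8 had a positive difference between resting Treg and Tconv and 0 passed. H2-Aa averaged 9.01 in activated Treg, 9.07 in resting Treg and 6.44 in Tconv. Cd74 averaged 7.86 in activated Treg, 7.85 in resting Treg and 5.76 in Tconv. Batf3 itself averaged 5.24 in activated and 6.18 in resting Treg. Itgax went the other way, at 4.54 in resting Treg and 4.82 in Tconv, within the silent range. Xcr1, a marker of the dendritic cells that need Batf3, averaged 4.34 in activated Treg, 4.32 in resting Treg and 4.10 in Tconv, all within the silent range.

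**Figure D2:**
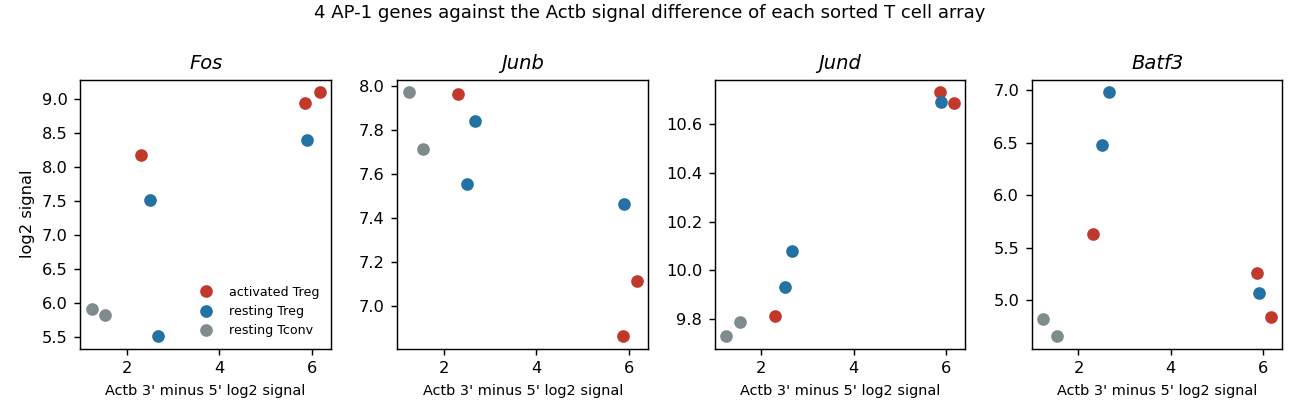
Log2 signal of Fos, Junb, Jund and Batf3 (vertical axes, each with its own range) against the Actb 3' minus 5' log2 difference of the same array, one point per sorted T cell array. The 3 arrays above 4 have the highest Fos and Jund and the lowest Junb signals, and both Tconv arrays lie under 2.

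Across the family, 0 of 8 members passed between activated and resting Treg, where 0.742% of all genes did by limma. There 11.5% of all genes had an unadjusted limma p under 0.05, and of the members only Fos did. In resting Treg against Tconv 1 of 8 passed, higher, where 5.51% of all genes passed and 3.86% were higher. In activated Treg against Tconv 2 of 8 passed, both higher, where 9.7% of all genes passed and 5.93% were higher. The comparisons share arrays and are not independent of each other. The median difference of the members was 0.12 for activated against resting Treg, 0.54 for resting Treg against Tconv and 0.54 for activated Treg against Tconv, while the medians of all genes lay between 0.00351 and 0.0167. The fit had only 5 residual degrees of freedom. In the plot of differences, the intervals of all members but Fosb and Fosl1 each span more than 1 log2 unit.

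**Figure D3:**
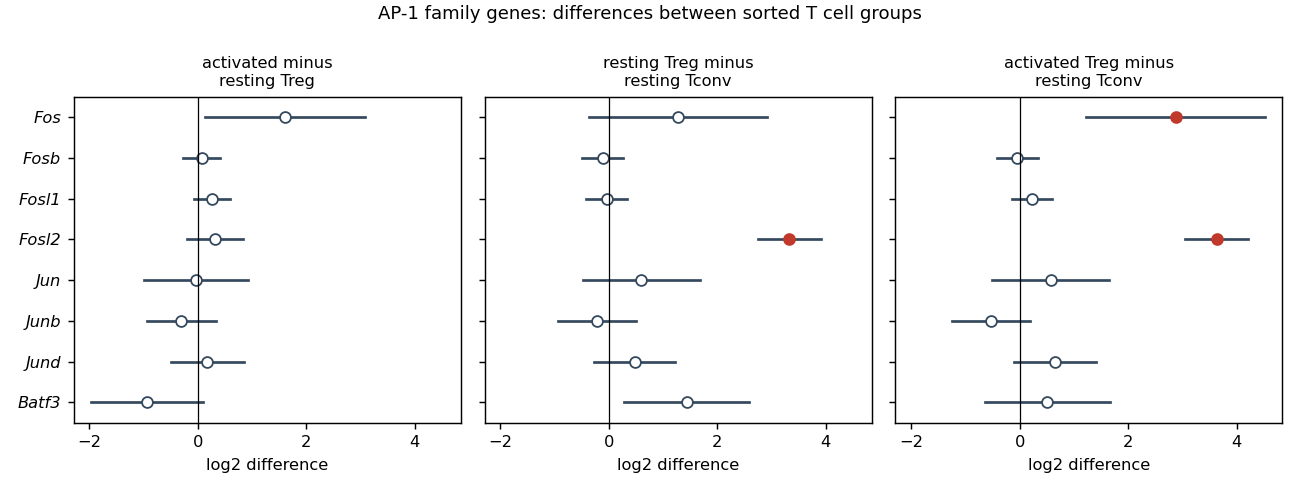
Difference in log2 signal for the 8 AP-1 genes in the 3 comparisons of sorted T cells, with 95% intervals from limma; filled points passed at an adjusted p of 0.05. Fosl2 passed against Tconv in both Treg groups and Fos in the activated group.

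The genes that work with AP-1 moved in part. Among 15 measured bZIP partners, Maf, a regulator of Il10 in T cells, was 4.75 higher in resting Treg and 5.68 higher in activated Treg than in Tconv (limma adjusted p = 6.198e-05 and 1.971e-05). Nfe2l2, the oxidative stress regulator, fell by 1.08 in activated against resting Treg and was 0.94 lower in resting Treg than in Tconv (limma adjusted p = 0.02336 and 0.01347). In activated Treg against Tconv, Jdp2 (2.27, at least 1.41-fold over Tconv inside the silent range) was higher while Nfe2l2 (-2.02) and Mafk (-0.70) were lower, which made 2 higher and 2 lower. Batf did not pass in any of the 3 (0.67 for activated against resting Treg, 0.13 for resting Treg and 0.81 for activated Treg against Tconv), and neither did Bach2 (-0.05, -0.65 and -0.70), a repressor that competes for AP-1 sites.

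Of 6 composite partners only Irf4 passed, and it passed in all 3 comparisons. Irf4 was 3.73 higher in activated than in resting Treg, 2.26 higher in resting Treg than in Tconv and 5.99 higher in activated Treg than in Tconv (limma adjusted p = 0.00333, 0.004071 and 2.474e-05). Irf4 in Tconv was inside the silent range, so these differences from Tconv are at least 2.94-fold for resting Treg and at least 38.9-fold for activated Treg. Within the 5 arrays of low Actb difference no composite partner passed between activated and resting Treg.

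Among the other immediate-early genes, Egr1, Egr2, Egr3, Nr4a1 and Nr4a3 rose with activation. Of 15 measured, 5 were higher and 1 lower in activated than in resting Treg. Egr3 (5.93), Egr2 (4.95) and Egr1 (2.66) encode zinc finger factors induced by the antigen receptor, and Nr4a3 (2.59) and Nr4a1 (2.49) encode orphan nuclear receptors. Egr3 in resting Treg was inside the silent range in all 3 arrays (at least 21.2-fold), and Egr2 in 2 of 3, so these differences have no fixed order. Nr4a2, of the same family, did not pass, but its means of 5.75 in activated and 5.34 in resting Treg were inside the silent range. The 1 lower gene was Rhob (-1.67), named after its value was seen. Within the 5 arrays of low Actb difference 1 of the 15 passed. In resting Treg against Tconv, Egr1 was higher (1.34) and Myc lower (-2.40). In activated Treg against Tconv 5 were higher and 1 lower, the same 5 genes being higher and Rhob lower (-1.38). Egr2 and Egr3 in Tconv were inside the silent range (at least 21.9-fold and at least 21.2-fold), and of the others Nr4a3 was higher by 3.50 and Nr4a1 by 3.37.

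Of 25 genes with textbook AP-1 or NFAT and AP-1 sites, Il10 alone passed between activated and resting Treg (3.34 higher, limma adjusted p = 0.02676). Against Tconv, resting Treg had 4 higher, namely Cd83 (5.71), Il2ra (5.49), Vim (2.60) and Cd44 (1.94), and 1 lower, Il2 (-0.85). Activated Treg had 7 higher and none lower, among them Il2ra (7.07), Cd83 (6.61), Il10 (4.45), Vim (3.04) and Cd44 (2.85). Il2ra, Cd83 and Il10 in Tconv were inside the silent range, so that their differences in activated Treg are at least 28.6-fold, at least 38.0-fold and at least 7.05-fold, with no order among them. In resting Treg those of Il2ra and Cd83 are at least 3.25 and at least 4.35 log2 units, and Il2 was inside the silent range in both groups. The median of the list was 0.21 for activated against resting Treg, 0.04 for resting Treg against Tconv and 0.15 for activated Treg against Tconv.

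The kinases and factors that act upstream, 18 measured, gave 0 calls between activated and resting Treg. Mrtfb, a cofactor of SRF, and Elk3, an ETS factor, were higher in resting Treg than in Tconv (1.40 and 1.04) and in activated Treg than in Tconv (1.63 and 1.48), where Prkcq was lower (-1.32). Of 13 genes of turnover and feedback, 0 passed between activated and resting Treg. Dusp4, a MAP kinase phosphatase, Nedd4, a ubiquitin ligase, and Ndfip1, an adaptor of such ligases, were higher in resting Treg than in Tconv (3.25, 1.95 and 0.76). Tconv was inside the silent range for Dusp4 (at least 2.78-fold) and Nedd4 (at least 3.13-fold). In activated Treg 6 were higher than in Tconv, among them Dusp4 (5.24, at least 11.1-fold) and Dusp5 (2.67), and Zfp36, which promotes mRNA decay, was lower (-2.42).

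In the ligand experiment the deposited values of each IgG1 array and the Sema4a-Ig array with the neighbouring code have the same mean at every probe set, within 6e-05. Levels therefore cannot be compared between NRP KO and WT, the loss of Nrp1 cannot be checked, and the 16 differences of Sema4a-Ig minus IgG1 carry the information. Foxp3 read 3.27 to 3.82 in all NRP KO arrays and 3.33 to 3.76 in all WT arrays, within the range of the silent tissue genes, while Ikzf2, another Treg marker, read 10.7 or more in every array. Nrp1 was 0.34 higher on Sema4a-Ig in NRP KO and 0.37 higher in WT, and the second passed (limma adjusted p = 0.02196).

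Fosl1 was the one member that passed in WT Treg, lower on Sema4a-Ig. In NRP KO it had a lowest, median and highest signal of 4.40, 4.66 and 4.90 on Sema4a-Ig, against 4.78, 5.02 and 5.27 on IgG1. In WT these were 3.95, 4.60 and 4.79 on Sema4a-Ig, against 4.89, 5.08 and 5.72 on IgG1. The 2 treatments did not overlap in WT and overlapped in NRP KO. This follows from the pair differences, since all pairs have the same mean, and is not a separate result. The same holds for the 3 of the 8 WT arrays on Sema4a-Ig that were inside the silent range.

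The pair differences of Fosl1 in NRP KO were -0.42, -0.87, -0.54, -0.30, -0.49, -0.04, 0.12 and -0.30. In WT they were -1.54, -0.51, -1.77, -0.46, -0.34, -0.10, -0.36 and -0.97. Fosl1 was thus lower in 7 of 8 NRP KO pairs and in 8 of 8 WT pairs, with WT pairs 1 and 3 the lowest of all. The mean difference in NRP KO was -0.35 ± 0.15 (SE), with an exact sign-flip p of 0.02344. It did not pass (limma adjusted p = 0.4528), and neither did any other gene in NRP KO. In WT the mean difference was -0.76 ± 0.15, with a limma adjusted p of 0.005334. The exact sign-flip p in WT was 0.007812, the smallest that 8 pairs allow. Leaving out any 1 pair kept the call, with WT means between -0.85 and -0.61. The difference between the genotypes was 0.40 ± 0.21 (NRP KO minus WT), with a 95% interval of -0.03 to 0.84, and did not pass (limma adjusted p = 0.8543).

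A second, dimmer Fosl1 probe set had a mean difference of -0.10 in NRP KO (lower in 4 of 8 pairs) and of -0.26 in WT (lower in 6 of 8 pairs, exact sign-flip p = 0.05469). With the mean of both probe sets Fosl1 was lower by 0.51 in WT and passed (limma adjusted p = 0.01246).

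**Figure D4:**
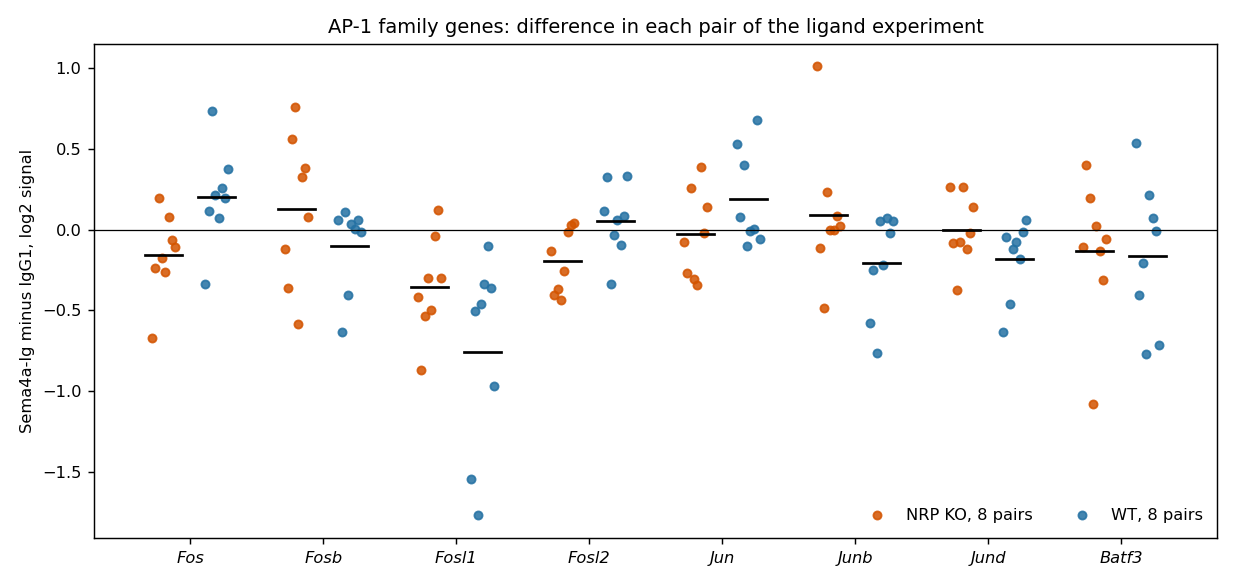
Sema4a-Ig minus IgG1 difference in log2 signal for the 8 AP-1 genes in each of the 16 pairs, NRP KO left of WT; bars are means of 8 pairs. All 8 WT points of Fosl1 lie below 0, from -1.77 to -0.10.

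No other member passed in either genotype. For Fos the pairs ran from -0.67 to 0.20 in NRP KO (median -0.14, lower in 6 of 8) and from -0.33 to 0.74 in WT (median 0.20, higher in 7 of 8). The Fos means of -0.16 in NRP KO and 0.20 in WT differed by -0.36 ± 0.14 (SE). This had an unadjusted p of 0.01712 and did not pass over all genes (limma adjusted p = 0.7912).

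Fosl2 had the same order of genotypes. Its pairs ran from -0.43 to 0.04 in NRP KO (mean -0.19) and from -0.34 to 0.33 in WT (mean 0.05), and the difference of -0.25 ± 0.12 did not pass (limma adjusted p = 0.8296). The second Fosl2 probe set was lower in 7 of 8 pairs of each genotype (exact sign-flip p = 0.01562 in each). Its mean differences were -0.50 in NRP KO and -0.22 in WT. The 2 Fosl2 probe sets thus differ in sign in WT.

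The mean differences of the Jun genes were small in both genotypes. Jun averaged -0.03 in NRP KO and 0.19 in WT. A second Jun probe set averaged 0.23 in NRP KO (higher in 7 of 8 pairs, exact sign-flip p = 0.03906) and 0.29 in WT (higher in 6 of 8 pairs, exact sign-flip p = 0.04688), so the 2 Jun probe sets differ in sign in NRP KO. Junb averaged 0.09 in NRP KO and -0.21 in WT, and Jund 0.00 in NRP KO and -0.18 in WT. Jund was lower in 7 of 8 WT pairs (exact sign-flip p = 0.03125) and did not pass (limma adjusted p = 0.2197). The lowest Junb difference in WT, -0.77, came from pair 3, which also held the lowest Fosl1. Junb and Jund differences went together over the 16 pairs (Pearson r = 0.77, permutation p = 0.00088, adjusted p = 0.0132 over 15 member pairs; Spearman rho = 0.50, permutation p = 0.0532, adjusted p = 0.266). Pearson r was 0.71 without the 2 farthest pairs, 0.68 within NRP KO and 0.80 within WT. All genes share the arrays and normalization of a pair, and r between genes at large was not computed. The permutation p therefore does not set Junb and Jund apart from other genes. Fosb and Batf3, near the silent genes, averaged 0.13 and -0.13 in NRP KO and -0.10 and -0.16 in WT.

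As a share of the family, 0 of 8 members passed in NRP KO, where 0% of all genes passed by limma. There 10.5% of all genes had an unadjusted limma p under 0.05, and of the members only Fosl1 and Fosl2 did. In WT 1 of 8 passed, lower, where 5.79% of all genes passed and 2.88% were lower. Between the genotypes 0 of 8 passed, as did 0% of all genes (5.94% at an unadjusted p under 0.05). Of the members only Fos and Fosl2 were under that unadjusted limit between the genotypes. The passing of Fosl1 in WT and not in NRP KO is not a difference between the genotypes by this test.

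Over the 16 pairs, the genes whose differences were most like those of Fosl1 were Heatr1 (Pearson r = 0.93), Pcbp1 (0.91) and Rbpj (0.91). For Junb they were Phf23 (0.94), Rrm2 (0.92) and Ap2a2 (0.91), and for Jund Zfp592 (0.92), Slc39a14 (0.90) and Eif2b2 (0.89). For Fos they were Ifi35 (0.85), Acbd3 (0.83) and Rcn1 (0.82), for Fosl2 Slc25a46 (0.83), Spata2 (0.81) and Dcp1b (0.79), and for Jun Eva1b (0.82), Zfp128 (0.81) and Sp4 (0.81). The pairs share their arrays and normalization, and these are the highest of all genes, so the values are descriptions.

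The genes with AP-1 or NFAT and AP-1 sites were lower on Sema4a-Ig in WT in many cases. Of 25, 10 were lower and 1 higher in WT, where 2.88% of all genes were lower and 5.79% passed in either direction. The list was chosen with earlier results of these data known, so this contrast is a description and not a test. In NRP KO 0 of the list passed, as did 0% of all genes. The largest WT differences were Il3 (-1.02), Xcl1 (-0.93), Ccl3 (-0.86), Ifng (-0.85) and Csf2 (-0.75), all cytokines or chemokines. Il3 on Sema4a-Ig was inside the silent range in 8 of 8 WT arrays, averaging 3.45 against 4.47 on IgG1. Its WT difference is thus at least 1.07-fold, and its place in this order is not fixed. In NRP KO the means of Il3, 3.72 on Sema4a-Ig and 4.20 on IgG1, were both inside that range. As with Fosl1, these Il3 levels and the bound follow from the pair differences, since all pairs have the same mean. They are not a separate result. The 1 higher gene was Vim (0.28), named after its value was seen. In NRP KO the differences were -0.48 for Il3, -0.66 for Xcl1, -0.54 for Ccl3, -0.93 for Ifng and -0.77 for Csf2, and 20 of the 25 were negative. The 95% intervals of these 5 in NRP KO all lay below 0, with limma adjusted p between 0.3756 and 0.473. The median of the list was -0.16 in NRP KO and -0.26 in WT, against -0.0158 and -0.0141 for all genes. Of these 25 genes 0 passed between the genotypes. The WT count rests in part on pair 3: without it 3 genes passed, all lower, and 258 passed over all genes, against 990 with it.

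**Figure D5:**
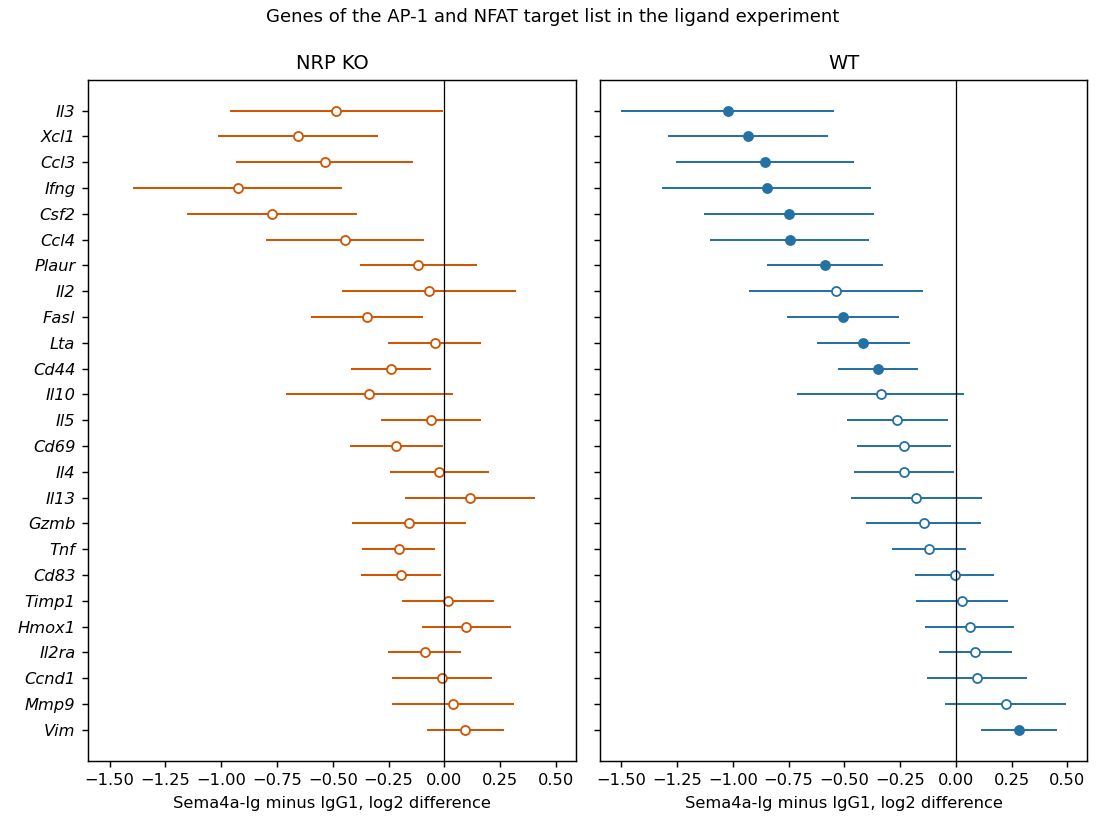
Sema4a-Ig minus IgG1 difference in log2 signal, with 95% intervals from limma, for the 25 listed AP-1 and NFAT target genes in NRP KO (left) and WT (right), ordered by the WT difference; filled points passed. In WT 10 are lower and 1 higher, and in NRP KO none is filled.

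Of 15 bZIP partners in WT, Atf3, a stress-induced repressor, and Bach2 were lower (-0.78 and -0.29) and Bach1 was higher (0.30). In NRP KO 0 of them passed, as did 0% of all genes. Bach2 was lower in 7 of 8 NRP KO pairs and 8 of 8 WT pairs (mean -0.14 in NRP KO and -0.29 in WT). Batf averaged -0.01 in NRP KO and 0.09 in WT and did not pass. Irf8 (-0.92) and Irf4 (-0.50), partners at composite sites, were lower in WT, where Irf4 passed with a limma adjusted p of 0.04926. In NRP KO Irf4 averaged -0.38 (limma adjusted p = 0.4244).

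Of 15 other immediate-early genes, Nr4a2 (-0.51) and Nr4a3 (-0.41) were lower and Btg2 (0.36) higher in WT. Of 17 upstream genes, Mef2d (0.42), Elk4 (0.31) and Map3k8 (0.26) were higher and Map3k7 (-0.29) lower in WT, and of 10 turnover and feedback genes 0 passed. In NRP KO 0 genes of these lists passed, and neither did any other gene. Myeloid markers moved beside these WT results: Lyz2 (0.81), Tyrobp (0.39) and Ctss (0.37) were higher on Sema4a-Ig, 3 of 16, and the mean of the list was higher in 4 of 8 NRP KO pairs and 6 of 8 WT pairs. The mean of 9 CD8 and NK cell markers was lower in 5 of 8 NRP KO pairs and 7 of 8 WT pairs, with Nkg7 passing in WT (-0.52). Of 9 B cell markers Cd79b was higher in WT (0.35), and 0 of 9 dendritic and MHC class II markers passed. Their part in the WT results was not tested. In these bulk samples fewer cells of a type and less RNA per cell cannot be told apart.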

How the data were processed

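The deposited values are log2 signals per probe set, made by the authors with RMA in Partek 6.6 per the submitters' processing notes; the scanner files were not used here. Probe sets were named through the platform annotation, and those with 1 gene were kept. Array groups came from the titles.

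Both experiments were fitted apart with limma 3.58.1 in R 4.3.3 (two-sided, Benjamini-Hochberg over all genes, threshold 0.05). The sorted arrays had 1 mean per group. The ligand arrays were fitted as 16 pair differences with 1 mean per genotype, since the pairs of neighbouring codes in the titles have equal means in the deposited values. Single members were also tested by exact permutation of arrays or exact sign flips of pairs. The fits were tested on simulated data.

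All 8 members were named in each comparison, with at most the 5 largest calls of each list, and Batf, Irf4 and Bach2 always. The members, the gene lists, the pair design and the Actb limit of 4 were chosen with earlier results of these data known. Alternatives covered probe set choice, a filter on dim genes, normalization, array weights, the variance model, RNA quality, the replicate block and leaving out arrays or pairs. The restriction to the 5 arrays of low Actb difference, and all list counts under alternatives, were added after seeing the data.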

Additional observations from a re-analysis of the deposited data

How the results depend on the processing

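Fosl2 against Tconv in both Treg groups and Fosl1 in WT kept their direction and passed under every alternative run, Fosl1 with a limma adjusted p of 8.517e-06 to 0.02331. Fos in activated Treg against Tconv kept its direction and lost the call under quantile normalization (limma adjusted p = 0.05918), with the Actb class as a block, in the 5 arrays of low Actb difference, and without 5 of the 8 arrays in turn. Batf3 in resting Treg against Tconv passed with array weights (limma adjusted p = 0.008405), with the Actb class as a block, in the 5 arrays of low Actb difference and without resting replicate 1. Over all members, comparisons and alternatives, 836 values kept their direction and their side of the threshold, 16 came to pass, 8 ceased to pass and 37 changed sign, none of these past the threshold on either side. The causes were not tested. With 3, 3 and 2 sorted arrays, the spread of 1 array moves many calls, and signals near the silent tissue genes limit Fosb, Fosl1 and Batf3 in both experiments and Fos and Fosl2 in Tconv.

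With the mean of all probe sets of a gene, 0 bZIP partners, 2 composite partners and 3 target genes passed in activated against resting Treg. Jun turned to 0.10 in activated against resting Treg. 2 composite partners and 0 upstream genes passed in resting Treg against Tconv. 3 composite partners passed in activated Treg against Tconv. Jun turned to 0.10 and Jund turned to 0.031 in NRP KO. 1 turnover gene passed in WT. Fosl2 turned to -0.082 in WT. With quantile normalization, 216 genes, 1 turnover gene and 2 target genes passed in activated against resting Treg. 1 member passed in activated Treg against Tconv. With array weights, 957 genes, 2 bZIP partners, 3 turnover genes and 5 target genes passed in activated against resting Treg. Fosb turned to -0.030 and Jun turned to 0.68 in activated against resting Treg. 3005 genes, 3 members, 4 bZIP partners, 2 composite partners, 4 upstream genes, 8 turnover genes, 8 target genes and 4 immediate-early genes passed in resting Treg against Tconv. Fosl1 turned to 0.011 in resting Treg against Tconv. 5894 genes, 5 members, 7 bZIP partners, 3 composite partners, 7 upstream genes, 13 target genes and 11 immediate-early genes passed in activated Treg against Tconv. Jund turned to 0.017 in NRP KO. 1 immediate-early gene passed in WT. With the Actb class as a block, 318 genes, 2 bZIP partners, 2 turnover genes and 3 target genes passed in activated against resting Treg. Jund turned to -0.088 in activated against resting Treg. 1633 genes and 2 members passed in resting Treg against Tconv. 1 member passed in activated Treg against Tconv. Fosb turned to 0.072 in activated Treg against Tconv. In the 5 arrays of low Actb difference, 24 genes, 0 bZIP partners, 0 composite partners, 0 target genes and 1 immediate-early gene passed in activated against resting Treg. Junb turned to 0.27 and Jund turned to -0.19 in activated against resting Treg. 2 members, 2 composite partners, 1 upstream gene and 1 immediate-early gene passed in resting Treg against Tconv. Fosl1 turned to 0.047 in resting Treg against Tconv. 873 genes, 1 member, 2 bZIP partners, 1 upstream gene and 4 turnover genes passed in activated Treg against Tconv. Fosb turned to 0.0029 and Junb turned to 0.12 in activated Treg against Tconv. Among genes brighter than the median gene, 1654 genes, 1 turnover gene and 6 immediate-early genes passed in WT. With pair differences centred, Jund turned to 0.016 in NRP KO. 1 composite partner passed in WT. With a variance trend and robust fit, 1 turnover gene and 7 immediate-early genes passed in WT. With no replicate block, which takes the 32 arrays as independent and understates the error, 1734 genes, 2 members, 1 bZIP partner, 2 composite partners, 2 upstream genes, 1 turnover gene, 10 target genes and 6 immediate-early genes passed in NRP KO. 4417 genes, 4 members, 8 bZIP partners, 4 composite partners, 10 upstream genes, 4 turnover genes and 9 immediate-early genes passed in WT. 530 genes, 1 member, 2 bZIP partners, 1 upstream gene, 1 turnover gene and 2 target genes passed in NRP KO minus WT.

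Leaving out each array or pair in turn, for activated against resting Treg, 12 to 168 genes, 0 to 1 bZIP partners, 0 to 1 turnover genes, 0 to 3 target genes and 2 to 6 immediate-early genes passed. In activated against resting Treg the difference ran from -0.024 to 0.13 for Fosb and -0.56 to 0.43 for Jun. For resting Treg against Tconv, 242 to 1208 genes, 1 to 2 members, 1 to 3 bZIP partners, 0 to 1 composite partners, 0 to 2 upstream genes, 0 to 3 turnover genes and 0 to 2 immediate-early genes passed. In resting Treg against Tconv the difference ran from -0.10 to 0.047 for Fosl1. For activated Treg against Tconv, 433 to 2262 genes, 1 to 3 members, 2 to 4 bZIP partners, 1 to 3 upstream genes and 2 to 8 turnover genes passed. In activated Treg against Tconv the difference ran from -0.15 to 0.059 for Fosb. In NRP KO the difference ran from -0.089 to 0.016 for Jun, -0.039 to 0.17 for Junb, -0.038 to 0.053 for Jund and -0.21 to 0.00080 for Batf3. For WT, 258 to 1328 genes, 0 to 4 bZIP partners, 1 to 2 composite partners, 0 to 5 upstream genes, 0 to 1 turnover genes, 3 to 11 target genes and 0 to 4 immediate-early genes passed. In NRP KO minus WT the difference ran from -0.061 to 0.16 for Batf3. In WT the lowest gene count came without pair 3 and the highest without NRP KO pair 3. Against Tconv the lowest gene counts came without Tconv replicate 1, and between activated and resting Treg without activated replicate 1. No replicate block was fitted over the sorted arrays, whose numbers only follow the order of deposit.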
